A study of Homo sapiens with 6 samples.

Results

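Semaphorins are guidance proteins, and plexins and neuropilins are their receptors. The genes described here are the 31 rows of the deposited expression table whose symbol names a semaphorin of class 3 to 7 (20 genes), a plexin (9 genes) or a neuropilin (2 genes), out of 60664 genes in all. The rule reads their symbols and none of their values, but the family was picked for description with earlier results of these data known. Their levels were compared in 67R cells, which are NCI-H1975 lung adenocarcinoma cells, a human line with EGFR L858R and T790M mutations, with acquired resistance to ASK120067, an EGFR inhibitor, after growth in rising doses. The NC group (3 libraries) received a negative control siRNA, called siNC in the study, and the siBCAT1 group (3 libraries) an siRNA against BCAT1, a cytosolic aminotransferase of branched-chain amino acids. Both groups were thus resistant cells, so the comparison holds no parental NCI-H1975 cells, and the study's methods use the name siBCAT1 for the siRNA also called siBCAT1-2, so the knockdown rests on a single siRNA. Nothing in the labels says that the 3 libraries of a group came from separate cultures, so the p-values below measure the spread between these libraries, which may be technical. Whether the sequenced cells were a single clone is not stated in the sources used here.

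Semaphorins bind plexins, whose intracellular part acts on small GTPases and through them on the cytoskeleton and on adhesion to the matrix. Most secreted class 3 semaphorins reach their plexin through a neuropilin, whereas SEMA3E binds PLXND1 directly, and semaphorins of classes 4 to 7 are membrane proteins that mostly bind plexins without a neuropilin. The family was found as a set of axon guidance cues, and in carcinomas single members are known as inhibitors or as promoters of migration, invasion and vessel growth.

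Levels are given in TPM, a transcript abundance per unit of gene length that is scaled to a fixed total in every library. Values of different genes can therefore be compared, but the length was set by the authors' gene models. It was 2415 bases for SEMA3C and 7273 bases for SEMA3E. The TPM values summed to between 992512 and 995593 per library and between 23152 and 25043 genes per library were above 0, but TPM holds no read counts, so the depth of the libraries is unknown. BCAT1 was at 42.7, 42.18 and 29.76 TPM in the 3 NC libraries and at 8.78, 7.1 and 8 TPM in the 3 siBCAT1 libraries, a log2 fold change of -2.12 (adjusted p = 0.000272 from limma). As to the labelled cell type, the 6 epithelial markers summed to 2546 to 2948 TPM in NC and 1647 to 1935 TPM in siBCAT1. Of the 6, 5 were called lower in siBCAT1 (CDH1, KRT7, KRT8, KRT18 and KRT19). Over all genes tested, 10.4% were called lower and 16.7% higher, by the rule given in the next paragraph. EPCAM, the remaining epithelial marker, was low and went the other way without overlap. It was at 0.91 to 1.55 TPM in NC and 1.96 to 2.61 TPM in siBCAT1 and was not called (adjusted p = 0.0732 from limma). The 4 lung lineage markers were near or at 0, with NKX2-1 at 0.1 TPM or less and SFTPC at 0 in every library. Markers of other cell types were in part near 0 and in part expressed. The 4 endothelial markers summed to 0.75 to 0.91 TPM in NC and 0.90 to 2.61 TPM in siBCAT1, nearly all of it CDH5 (not called), with PECAM1 at 0.04 TPM or less. The 4 leukocyte markers summed to 29.9 to 38.6 TPM in NC and 53.3 to 60.9 TPM in siBCAT1, nearly all of it CD68, a lysosomal protein, which was called higher, while CD3E was at 0 throughout and PTPRC above 0 in siBCAT1 replicate 2 alone, at 0.33 TPM. The 4 fibroblast markers, mostly COL1A2, summed to 252 to 274 TPM in NC and 189 to 244 TPM in siBCAT1, with DCN at 0 and with COL1A1 (8.74 to 17.7 TPM) and PDGFRB (2.13 to 6.49 TPM) called lower. The 4 neuronal markers, mostly TUBB3, summed to 110 to 112 TPM in NC and 98.3 to 118 TPM in siBCAT1. In bulk RNA, fewer cells with a transcript and less of it per cell cannot be told apart, and the part of these shifts in the results below was not tested.

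Of the 31 genes, 24 reached a mean level of 1 TPM across the 6 libraries and were tested, 15 semaphorins, 7 plexins and both neuropilins. The other 7 (PLXNA4, PLXNC1, SEMA3D, SEMA3G, SEMA4A, SEMA5B and SEMA6D) were below 1 TPM on average and were not tested, and SEMA3D and SEMA6D were above 0 in 1 library each. A gene was called where limma on log2(TPM + 1) gave an adjusted p under 0.05 (Benjamini-Hochberg over all 14286 genes tested, two-sided). By this rule 7 of the 24 (29.2%) changed, beside 27.1% of all genes tested. NRP2, PLXNA1 and SEMA3E rose in siBCAT1 cells, 3 of 24 beside 16.7% of all genes. SEMA3F, SEMA4B, SEMA3C and PLXNA2 fell, 4 of 24 beside 10.4% of all genes. The groups did not overlap for 12 of the 24, 5 higher and 7 lower in siBCAT1, beside 44.1% of all genes. Over all 14286 genes, 3727 were higher and 2566 lower without overlap. The share of the family that changed was thus near that of the whole transcriptome and is not in itself a result about the family. Without the filter on low values, with 31860 genes tested, PLXNA2 (adjusted p = 0.0511), SEMA4B (0.0856), SEMA3C (0.0861) and SEMA3E (0.136) were no longer called. The median log2 fold change was -0.26 over the 24, with 17 below 0. Over all genes it was 0.04, with 6515 of 14286 below 0.

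Calls went in both directions among the ligands and among the receptors, beside 16.7% of all genes called higher and 10.4% lower. The only ligand called higher, SEMA3E, was called in 6 of 14 alternative ways of processing the data. The promoters of 4 called genes are shown as sequence context, a falling and a rising ligand (SEMA3F, SEMA3E) and a falling and a rising receptor (PLXNA2, NRP2). Each is the RefSeq window on GRCh38.p14 from 250 bases before to 50 bases after a transcript start, read 5′ to 3′ on the gene's strand. Capitals mark GGGCGG (known as the GC box, to which SP1 proteins bind), ACGTG (the core of a hypoxia response element) or TATAAA (known as the TATA box) on either strand, with overlapping matches run together. SEMA3F lies at chr3:50154808-50155107 (plus strand), SEMA3E at chr7:83649090-83649389 (minus), PLXNA2 at chr1:208244335-208244634 (minus) and NRP2 at chr2:205682251-205682550 (plus). These starts are 13, 26, 64 and 511 bases from the gene starts of GENCODE 29.
SEMA3F: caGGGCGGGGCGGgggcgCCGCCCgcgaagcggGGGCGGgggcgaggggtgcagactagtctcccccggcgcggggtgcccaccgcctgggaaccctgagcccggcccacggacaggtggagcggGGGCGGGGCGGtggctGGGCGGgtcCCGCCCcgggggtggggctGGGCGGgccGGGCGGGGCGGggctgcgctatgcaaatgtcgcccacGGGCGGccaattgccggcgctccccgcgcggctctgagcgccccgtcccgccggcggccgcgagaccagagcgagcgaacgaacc
SEMA3E: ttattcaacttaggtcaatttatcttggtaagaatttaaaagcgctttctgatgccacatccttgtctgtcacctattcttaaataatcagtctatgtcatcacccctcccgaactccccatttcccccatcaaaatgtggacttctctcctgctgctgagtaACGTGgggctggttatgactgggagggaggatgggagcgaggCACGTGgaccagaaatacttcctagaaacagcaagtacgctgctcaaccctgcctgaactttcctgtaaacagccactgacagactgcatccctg
PLXNA2: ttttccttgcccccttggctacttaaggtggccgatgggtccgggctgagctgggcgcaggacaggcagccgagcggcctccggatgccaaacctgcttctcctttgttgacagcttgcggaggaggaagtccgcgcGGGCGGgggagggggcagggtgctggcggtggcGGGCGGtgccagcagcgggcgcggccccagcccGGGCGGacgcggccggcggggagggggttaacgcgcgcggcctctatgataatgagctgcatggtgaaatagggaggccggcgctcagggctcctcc
NRP2: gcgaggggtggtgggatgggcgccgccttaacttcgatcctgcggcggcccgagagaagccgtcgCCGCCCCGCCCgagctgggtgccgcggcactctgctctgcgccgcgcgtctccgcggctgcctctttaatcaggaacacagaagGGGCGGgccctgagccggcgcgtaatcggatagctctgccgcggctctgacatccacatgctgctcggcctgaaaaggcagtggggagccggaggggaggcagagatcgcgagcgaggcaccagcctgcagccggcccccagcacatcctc

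The 4 windows differ in composition. The window of SEMA3F is 81.3% G or C, with 44 CpG dinucleotides and 12 GC box matches, some overlapping. PLXNA2 (29 CpG) and NRP2 (33 CpG) hold 3 GC box matches each although one fell and the other rose. SEMA3E has 6 CpG, no GC box and 3 ACGTG matches, of which a pair comes from the same CACGTG read on both strands. RefSeq windows were matched for 27 of the 31 genes, all but NRP1, SEMA3A, SEMA6A and SEMA6B. Among the 7 called genes, taking for each the window closest to the GENCODE start, 5 held GGGCGG, 1 held ACGTG and 0 held TATAAA, beside 44.95%, 21.41% and 11.53% of 35116 promoters of the same length. These counts depend on the window taken. Another window of SEMA3C holds 3 GC box matches, and another of SEMA3E holds TATAAA but no ACGTG. The closest windows of SEMA4B and PLXNA1 start 24316 and 5479 bases from the GENCODE start. Of the 13 tested but uncalled genes with a window, 13 held GGGCGG, 2 ACGTG and 0 TATAAA. A match is a description of these letters and not of binding.

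**Figure D1:**
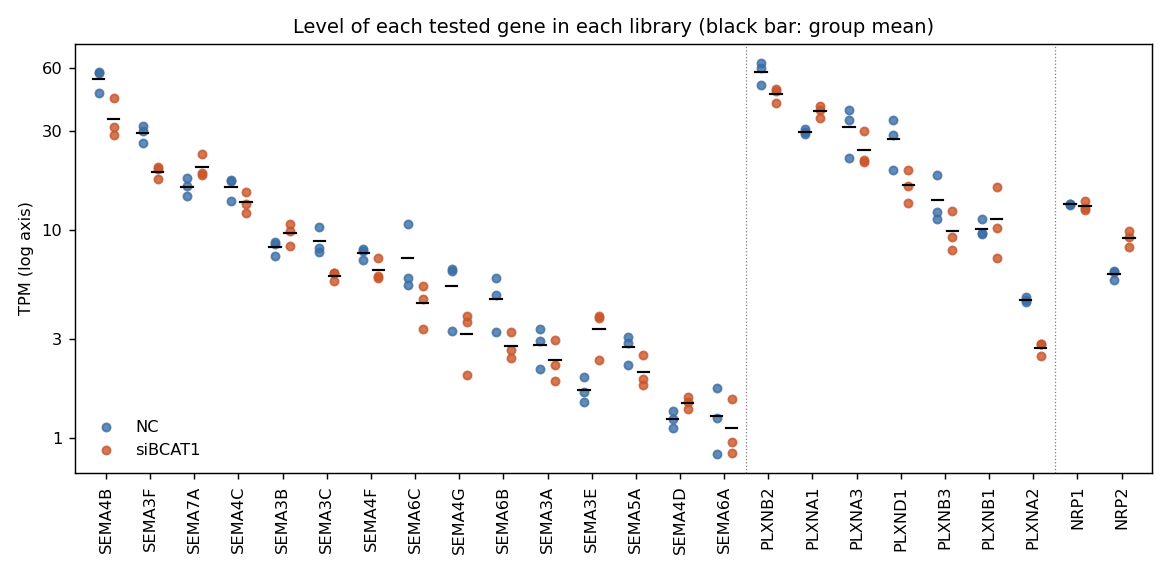
Level (TPM, log axis) of the 24 tested genes, semaphorins on the left, plexins in the middle and neuropilins on the right, each family ordered by its mean. Points are the 3 NC (blue) and 3 siBCAT1 (orange) libraries and black bars group means; the points of SEMA3F, PLXNA2 and NRP2 form separate groups, and those of PLXNB1 and SEMA6A overlap.

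Among the secreted class 3 ligands, SEMA3F (ENSG00000001617; GRCh38 chr3:50155045-50189075, plus strand) was the most abundant. SEMA3F binds NRP2 and is known for repelling tumour and endothelial cells. It was at 31.49, 26.24 and 29.95 TPM in NC and at 19.97, 17.59 and 19.66 TPM in siBCAT1. The lowest NC library was above the highest siBCAT1 library. The mean fell from 29.2 ± 2.70 TPM (SD, n = 3) to 19.1 ± 1.29 TPM, a log2 fold change of -0.59 ± 0.0964 (standard error, SE, adjusted p = 0.00509). SEMA3F was the one member called under all 15 alternatives that kept the adjusted p as the only criterion. No member passed when an absolute log2 fold change of at least 1 was also required. An antisense gene, SEMA3F-AS1, overlaps it, and whether the authors counted by strand is not given in the sources used here.

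SEMA3C (ENSG00000075223; chr7:80742538-80922359, minus strand), a secreted ligand that acts through either neuropilin and is mostly known as a promoter of tumour growth, also fell. Its level was 8.22, 10.37 and 7.84 TPM in NC and 5.66, 6.22 and 6.22 TPM in siBCAT1, with no overlap and with NC replicate 2 the highest. The log2 fold change was -0.47 ± 0.127 (SE, adjusted p = 0.0320). This call is weak, since it was lost whichever library was left out (adjusted p from 0.0512 to 0.103).

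SEMA3E (ENSG00000170381; chr7:83363238-83649113, minus strand) moved the other way. The protein binds PLXND1 and is known for its part in vessel patterning and in invasion. It was at 1.48, 1.66 and 1.96 TPM in NC and at 3.76, 2.38 and 3.87 TPM in siBCAT1, so that siBCAT1 replicates 1 and 3 were well above NC and replicate 2 only just. The mean rose 1.96-fold in TPM, from 1.70 ± 0.242 (SD, n = 3) to 3.34 ± 0.830 TPM, and by 0.67 on the log2(TPM + 1) scale (SE 0.197, adjusted p = 0.0433), which understates the change of so low a gene. The call was kept in 1 of the 6 analyses that left out a library, the one without siBCAT1 replicate 2 (adjusted p = 0.0249), and was lost in the others (adjusted p up to 0.120). Median-ratio scaling also ended it (adjusted p = 0.0530), and AC079799.2 overlaps the gene on the same strand.

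The remaining class 3 genes were not called. SEMA3B, a ligand known as a tumour suppressor of the 3p21 region, was at 7.48 to 8.73 TPM in NC and 8.39 to 10.7 TPM in siBCAT1. SEMA3A, the best known growth cone repellent and a ligand of NRP1, was at 2.15 to 3.33 and 1.88 to 2.96 TPM. SEMA3G stayed at 0.65 TPM or less in every library, and SEMA3D was above 0 in 1 library, at 0.04 TPM. The ratio of SEMA3F to SEMA3E was 21.3, 15.8 and 15.3 in NC and 5.31, 7.39 and 5.08 in siBCAT1. The class 3 sum was below the NC range in every siBCAT1 library, 48.9 to 53.8 TPM in NC and 38.2 to 43.4 TPM in siBCAT1.

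In class 4, made of transmembrane ligands, SEMA4B (ENSG00000185033; chr15:90160604-90229679, plus strand) had the highest mean of all semaphorins. Its level was 56.58, 45.56 and 57.18 TPM in NC and 43.1, 31.19 and 28.66 TPM in siBCAT1. The groups did not overlap, but siBCAT1 replicate 1 came close to NC replicate 2. SEMA4B fell by 0.63 on the log2 scale (SE 0.162, adjusted p = 0.0274), and the call was lost in 4 of the 6 analyses that left out a library (without NC replicate 1 or 3, or siBCAT1 replicate 2 or 3; adjusted p from 0.0918 to 0.110). RN7SL346P and RPS12P26 overlap SEMA4B on the same strand.

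SEMA4C, a ligand of PLXNB2, was at 17.37, 13.77 and 17.1 TPM in NC and at 15.28, 13.32 and 12.06 TPM in siBCAT1. These values overlapped (log2 fold change -0.23, SE 0.126, adjusted p = 0.222). SEMA4F was at 7.13 to 8.09 TPM in NC and 5.85 to 7.33 TPM in siBCAT1. SEMA4D, the ligand of PLXNB1 that is shed by a protease, was low but separated, at 1.12 to 1.35 TPM in NC and 1.37 to 1.58 TPM in siBCAT1 (adjusted p = 0.577). SEMA4G was at 6.37, 3.26 and 6.51 TPM in NC and at 3.59, 2.01 and 3.84 TPM in siBCAT1, where replicate 2 was the lowest of both groups. It was not called (adjusted p = 0.154), and it shares its locus with MRPL43 on the other strand. SEMA4A stayed at 0.74 TPM or less.

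SEMA7A, the GPI-anchored class 7 semaphorin, which binds PLXNC1 and β1 integrin, came next to SEMA4B and SEMA3F in mean level. It was at 16.21, 17.69 and 14.51 TPM in NC and at 18.84, 18.29 and 23.14 TPM in siBCAT1. Every siBCAT1 library was above every NC library, by a narrow margin, and the adjusted p was 0.108 (log2 fold change 0.30, standard error 0.119). Its share of all semaphorin TPM was 8.49% to 11.7% in NC and 13.2% to 18.0% in siBCAT1. The classical receptor PLXNC1 was at 0.45 to 0.62 TPM in every library, whereas ITGB1, the β1 integrin, was at 530 to 584 TPM in NC and 533 to 623 TPM in siBCAT1.

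Classes 5 and 6 were low. SEMA6C was at 10.66, 5.88 and 5.44 TPM in NC and at 3.35, 4.63 and 5.37 TPM in siBCAT1; the lowest NC and the highest siBCAT1 library were nearly equal. SEMA6B was at 5.88, 3.22 and 4.87 TPM in NC and at 2.64, 2.41 and 3.21 TPM in siBCAT1, where the nearest values of the groups almost touch. Neither was called (adjusted p = 0.139 for SEMA6C and 0.0825 for SEMA6B). SEMA6A was at 0.84 to 1.74 TPM and 0.85 to 1.53 TPM, and SEMA5A, a ligand of PLXNB3, at 2.25 to 3.04 and 1.79 to 2.51 TPM. SEMA5B and SEMA6D were silent or nearly so, at 0.55 and 0.21 TPM at most.

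**Figure D2:**
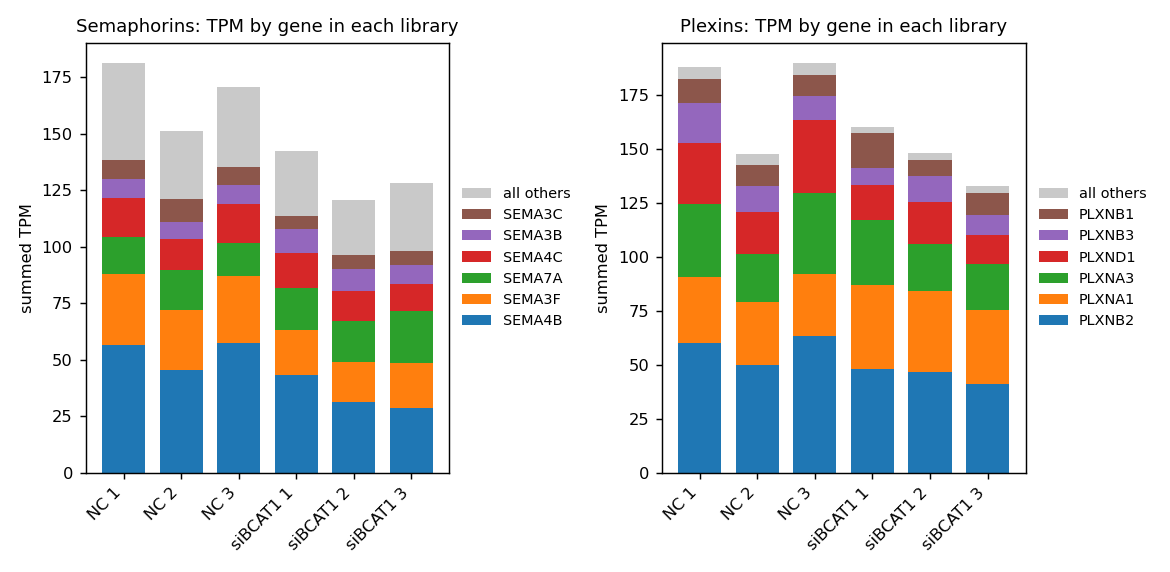
Stacked TPM of the semaphorins (left) and of the plexins (right) in each of the 6 libraries, with the 6 most abundant genes of each family in colour and all others in grey. The semaphorin stacks stand at 151 to 181 TPM in NC and 121 to 143 TPM in siBCAT1, and the PLXNA1 block (orange, right) takes a larger part of the plexin stack in siBCAT1.

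Among the receptors, the A-type plexins, which signal for class 3 semaphorins bound to neuropilins and for class 6 semaphorins, moved apart. PLXNA1 (ENSG00000114554; chr3:126988594-127037392, plus strand) was at 30.64, 29.52 and 28.9 TPM in NC and at 39.41, 37.63 and 34.49 TPM in siBCAT1. All siBCAT1 libraries were above all NC libraries, and the NC libraries lay close together. PLXNA1 rose by 0.31 on the log2 scale (SE 0.0764, adjusted p = 0.0228), a mean of 29.7 ± 0.882 TPM (SD, n = 3) against 37.2 ± 2.49 TPM. Without NC replicate 1 or 3, or siBCAT1 replicate 1 or 2, its adjusted p was 0.0534 to 0.0733.

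PLXNA2 (ENSG00000076356; chr1:208022242-208244320, minus strand), which also binds class 6 semaphorins directly, fell. It was at 4.61, 4.49 and 4.74 TPM in NC and at 2.47, 2.82 and 2.84 TPM in siBCAT1. Both groups were tight and far apart. The mean went from 4.61 ± 0.125 to 2.71 ± 0.208 TPM (SD, n = 3), a log2 fold change of -0.60 ± 0.126 (SE, adjusted p = 0.0133). The call was kept whichever library was left out. Within each library PLXNA1 was 6.65, 6.57 and 6.10 times PLXNA2 in NC and 16.0, 13.3 and 12.1 times PLXNA2 in siBCAT1. This ratio and the other ratios given were picked after the values were seen. An exact permutation test gave p = 0.1 for each, the lowest value possible with 3 libraries against 3. No conclusion is drawn from it, since the pairs were picked from these same values.

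PLXNA3, an A-type receptor used with NRP2 in particular, was at 33.8, 22.17 and 37.51 TPM in NC and at 29.87, 21.61 and 21.28 TPM in siBCAT1. The groups overlapped, and NC replicate 2 was close to siBCAT1 replicates 2 and 3 (log2 fold change -0.33, SE 0.212, adjusted p = 0.288). PLXNA4 was near 0, at 0.30 TPM in NC replicates 1 and 3 and at 0.01 TPM or less elsewhere. The A-type sum showed no shift, at 56.2 to 71.5 TPM in NC and 58.6 to 71.8 TPM in siBCAT1.

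The B-type plexins are receptors of class 4 and 5 semaphorins, and none of the 3 was called, beside 27.1% of all genes. PLXNB2, the gene with the highest level of the whole family in every library, was at 60.11, 49.79 and 63.11 TPM in NC and at 47.8, 46.78 and 40.89 TPM in siBCAT1. The groups were separate but the test just missed the threshold (log2 fold change -0.34, SE 0.108, adjusted p = 0.0534), and 5 of those 15 alternatives called it. PLXNB1, the receptor of SEMA4D, was at 11.25, 9.68 and 9.52 TPM in NC and at 16.13, 7.31 and 10.23 TPM in siBCAT1. Here siBCAT1 replicates 1 and 2 were the highest and the lowest of all 6 libraries (log2 fold change 0.07, SE 0.245, adjusted p = 0.856), and without siBCAT1 replicate 1 the sign turned (-0.20). PLXNB3 was at 18.32, 12.23 and 11.3 TPM in NC and at 8.04, 12.28 and 9.28 TPM in siBCAT1, with overlap (log2 fold change -0.45, SE 0.208, adjusted p = 0.154). It overlaps SRPK3 on the same strand, so its reads are uncertain.

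PLXND1, the receptor of SEMA3E, had the most negative log2 fold change of the 24 genes on the log2(TPM + 1) scale but was not called. With a pseudocount of 0.1, PLXNA2 (-0.75) and SEMA4G (-0.74) were below it (-0.71). Its level was 28.52, 19.41 and 33.94 TPM in NC and 16.23, 19.46 and 13.45 TPM in siBCAT1. The overlap came from NC replicate 2 and siBCAT1 replicate 2, which were nearly equal. The log2 fold change was -0.68 (standard error 0.212, 95% interval -1.18 to -0.18, adjusted p = 0.0514). Without NC replicate 2 it was -0.90 and called (adjusted p = 0.0145). SEMA3E stood at 0.0519, 0.0855 and 0.0577 of PLXND1 in NC and at 0.232, 0.122 and 0.288 of it in siBCAT1.

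**Figure D3:**
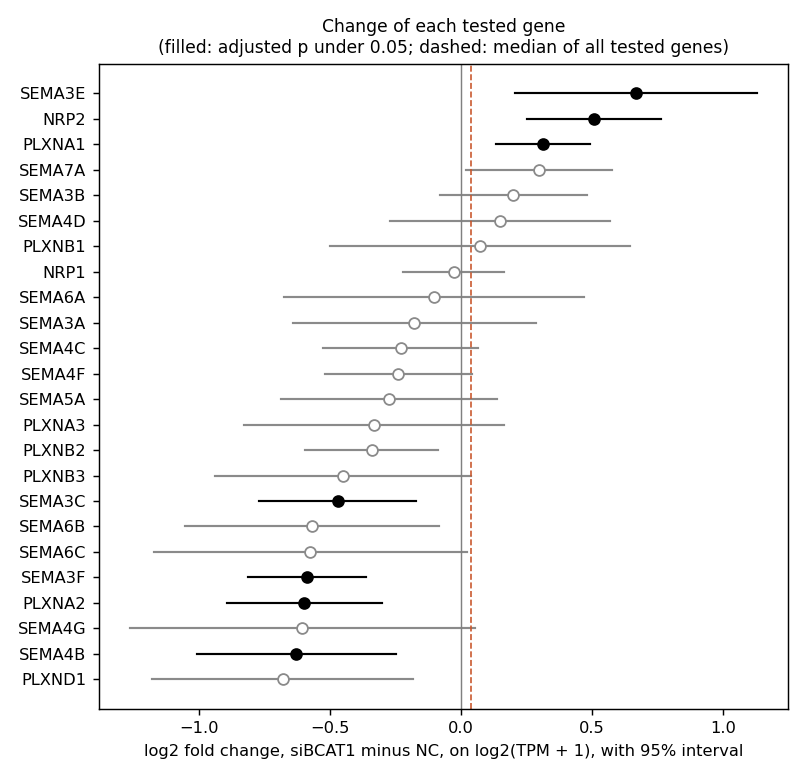
Log2 fold change (siBCAT1 minus NC, on log2(TPM + 1)) of the 24 tested genes with 95% intervals from limma, ordered by size; filled black points had an adjusted p under 0.05 and the dashed line is the median of all 14286 genes. SEMA3E, NRP2 and PLXNA1 are the filled points above 0, and SEMA3C, SEMA3F, PLXNA2 and SEMA4B those below.

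Neuropilins carry no signalling domain of their own and act as co-receptors, for class 3 semaphorins with plexins and for the VEGF family with its receptor kinases. NRP2 (ENSG00000118257; chr2:205681990-205798133, plus strand) was at 6.24, 5.71 and 6.36 TPM in NC and at 9.89, 8.23 and 9.22 TPM in siBCAT1. Every siBCAT1 library was above every NC library. NRP2 rose by 0.51 on the log2 scale (SE 0.109, adjusted p = 0.0143), from 6.10 ± 0.346 to 9.11 ± 0.835 TPM (SD, n = 3). The adjusted p was 0.0519 to 0.0565 without NC replicate 1, siBCAT1 replicate 1 or siBCAT1 replicate 3. AC007362.1 overlaps NRP2 on the other strand.

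NRP1 (ENSG00000099250; chr10:33177492-33336262, minus strand), the co-receptor of SEMA3A and of VEGFA, was at 13.24, 13.26 and 13.34 TPM in NC and at 12.74, 12.53 and 13.77 TPM in siBCAT1. The siBCAT1 values lay on both sides of the NC values. The log2 fold change was -0.03 ± 0.0823 (SE, adjusted p = 0.831), with a 95% interval from -0.22 to 0.16. NRP2 was thus 0.471, 0.431 and 0.477 of NRP1 in NC and 0.776, 0.657 and 0.670 of it in siBCAT1, with NRP1 the higher in all 6 libraries. SEMA3F, the ligand of NRP2, was 5.05, 4.60 and 4.71 times NRP2 in NC and 2.02, 2.14 and 2.13 times NRP2 in siBCAT1.

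By family, the 20 semaphorins summed to 181, 151 and 171 TPM in NC and to 143, 121 and 128 TPM in siBCAT1, without overlap. The 9 plexins summed to 188, 148 and 190 TPM in NC and to 160, 148 and 133 TPM in siBCAT1, with overlap through NC replicate 2. Both neuropilins together gave 19.0 to 19.7 TPM in NC and 20.8 to 23.0 TPM in siBCAT1. Within the plexins, PLXNA1 took 16.3%, 20.0% and 15.2% of the sum in NC and 24.6%, 25.4% and 25.9% in siBCAT1. Within the semaphorins, SEMA3F took 17.4%, 17.3% and 17.5% in NC and 14.0%, 14.5% and 15.3% in siBCAT1. Among the 31 genes ranked by TPM within each library, PLXNB2 was first in every library and SEMA4B at rank 2 or 3. NRP2 stood at rank 17, 16 and 16 in NC and at rank 12 in all siBCAT1 libraries, and SEMA3E at rank 22, 23 and 22 in NC and at rank 16, 19 and 17 in siBCAT1. SEMA7A stood at rank 9, 7 and 8 in NC and at rank 6, 6 and 4 in siBCAT1.

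By the median deviation over the 24 tested genes, replicate 2 was the lowest library of each group. NC replicate 2 was the lowest NC library for 13 of the 24 tested genes, with a median deviation from the NC mean of -0.111 on the log2 scale, beside -0.00118 over all genes and -0.0652 over the 3535 genes with the highest GC content when all are split into 4 equal groups. Of the 24 genes, 14 belong to that group. In it 16.5% of genes were called higher and 14.1% lower, beside 16.7% and 10.4% of all genes. In siBCAT1, replicate 2 was the lowest library for 11 of the 24, with a median deviation of -0.0889, beside -0.0035 over all genes and -0.0138 over the group with the highest GC content. Replicate 3 of siBCAT1 was the lowest for 9 of the 24. It also had the lowest plexin sum, 133 TPM beside 148 TPM in replicate 2. Without NC replicate 2, 9 of the 24 were called, 2 higher and 7 lower, including 5 of the 7 named above, with SEMA3C (adjusted p = 0.0684) and SEMA3E (adjusted p = 0.0835) lost. PLXNB2, PLXND1, SEMA4G and SEMA6B were called lower in that analysis. Without NC replicate 1, 2 of the 24 were called, and without siBCAT1 replicate 2, 4 were. Over all 14286 genes, the calls numbered 3706 without NC replicate 2, 2318 without NC replicate 1 and 2444 without siBCAT1 replicate 2, beside 3865 with all libraries. After each library was corrected for GC content and length, 6 of the 7 were kept and SEMA3E was lost (adjusted p = 0.0522). The part of base composition in these values was not tested further.

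**Figure D4:**
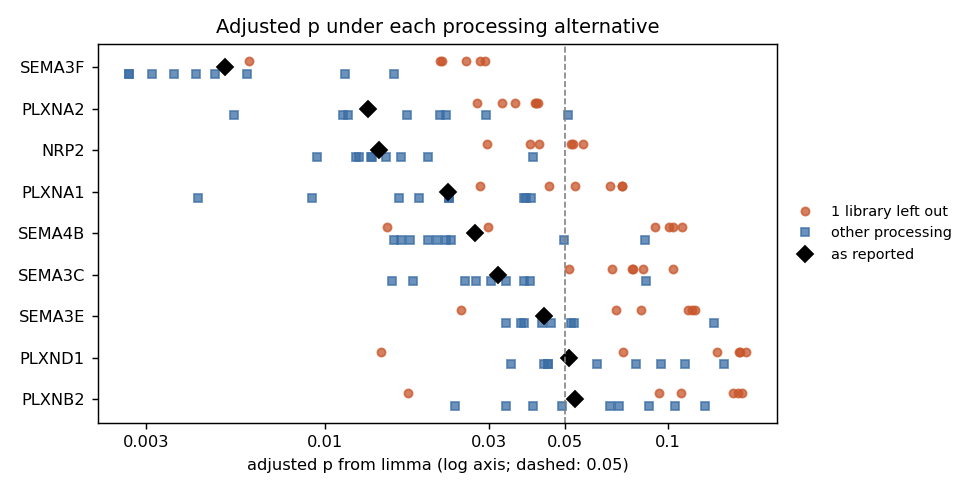
Adjusted p from limma (log axis, dashed line at 0.05) for the 7 called genes and for PLXND1 and PLXNB2, as reported (black diamonds), with 1 library left out (orange circles) and under the other processing alternatives (blue squares). All points of SEMA3F lie left of the line, all but 1 of PLXNA2 do, and those of the other genes fall on both sides.

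The genes that work with the family were taken from a list of 57 partners and effectors, of which 43 were tested and 16 (37.2%) called, 5 higher and 11 lower, beside the 27.1% of all genes. Their median log2 fold change was -0.10. Of the 5 co-receptors and direct binding partners tested (ERBB2, ITGB1, L1CAM, MET and MST1R) none was called, beside 27.1% of all genes. Without overlap, MET was lower (adjusted p = 0.0668 from limma) and ERBB2 higher (adjusted p = 0.115 from limma). Among the GTPases and their regulators, 6 of 11 (54.5%) were called, 2 higher and 4 lower, beside 27.1% of all genes. RAP1A, a small GTPase of the kind on which the plexin GAP domain acts, fell from 47.31, 47.33 and 46.38 TPM to 21.52, 22.24 and 21.8 TPM (log2 fold change -1.07, SE 0.0638, adjusted p = 0.000166). Its close relative RAP1B was at 158 to 167 TPM in NC and 146 to 151 TPM in siBCAT1 and was not called (adjusted p = 0.0946). SH3BP1, a GTPase-activating protein that binds plexins, fell from 7.62, 4.33 and 5.87 TPM to 2.33, 2.5 and 1.5 TPM (log2 fold change -1.15, SE 0.222, adjusted p = 0.00967).

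Of the 20 kinases and cytoskeletal effectors tested, 8 (40%) were called, 3 higher and 5 lower, beside 27.1% of all genes. DPYSL2, the CRMP2 protein that carries semaphorin 3 signals to microtubules, fell from 18.96, 15.22 and 16.72 TPM to 8.09, 8.56 and 7.14 TPM (log2 fold change -1.01, SE 0.114, adjusted p = 0.00127). MICAL2, a monooxygenase of the MICAL group that oxidizes actin, rose from 32.67, 29.05 and 24.04 TPM to 49.25, 47.94 and 47.53 TPM (log2 fold change 0.75, SE 0.111, adjusted p = 0.00353). Both shifts were free of overlap. Of the 3 VEGF-family ligands tested, 1 (33.3%) was called, lower, beside 10.4% of all genes called lower. This was PGF, which fell from 20.04, 17.45 and 17.62 TPM to 6.54, 10.22 and 8.25 TPM (log2 fold change -1.07, SE 0.153, adjusted p = 0.00297). VEGFB was at 26.4 to 29.6 TPM in NC and 19.0 to 26.7 TPM in siBCAT1 and was not called (adjusted p = 0.261). VEGFA, another VEGF-family ligand of neuropilins, was at 81.7 to 116 TPM in NC and 83.2 to 107 TPM in siBCAT1 and was not called. Of the 4 proteases that process semaphorins or plexins, 1 (25%) was called, lower, beside 10.4% of all genes called lower.

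Other guidance families were taken from another list. Of 45 netrin, slit, robo, ephrin and Eph genes and their relatives, 21 were tested and 7 (33.3%) called, 1 higher and 6 lower, beside 27.1% of all genes called, 16.7% higher and 10.4% lower. The median log2 fold change was -0.27, beside -0.26 in the semaphorin, plexin and neuropilin genes, and the difference between the families was not tested. NTNG2, a membrane-anchored netrin, fell from 4.5, 2.06 and 5.83 TPM to 1.24, 1.16 and 0.58 TPM (log2 fold change -1.30, adjusted p = 0.0232). ROBO4, a slit receptor family member known from endothelium, fell from 20.82, 15.68 and 15.73 TPM to 10.31, 8.8 and 10.89 TPM (log2 fold change -0.74, adjusted p = 0.00840). EPHA4, an Eph receptor kinase, fell from 6.64, 5.12 and 4.64 TPM to 3.39, 3.12 and 2.57 TPM (log2 fold change -0.68, adjusted p = 0.0220).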

How the data were processed

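RNA-seq of 67R cells was analysed from 6 libraries, assigned to NC and siBCAT1 (3 each) by their labels. Per the submitters' processing notes the authors used fastp, HISAT2 and StringTie on GRCh38; versions and annotation are not given in the sources used here. Libraries were stranded mRNA libraries made from total RNA. The authors deposited 1 value per gene and library with a gene length, taken as TPM from its sums. Depth is unknown, so precision rests on the spread between libraries.

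The 14286 of 60664 genes whose mean reached 1 TPM entered a fit on log2(TPM + 1) by limma 3.58.1 (R 4.3.3; lmFit and a trended eBayes). Adjustment was by Benjamini-Hochberg, calls were made under 0.05, and the code was first tested on simulated data. That test recovered part of the changes put in, and its pass limit was lowered after its outcome was seen, with no change to the fit. With 3 libraries against 3, an exact permutation test cannot give a two-sided p below 0.1. Members, lists and tests were chosen with earlier results of these data known. Genes described in full were those called or with a mean of at least 10 TPM; partners and other guidance genes were named where called with an absolute log2 fold change of at least 0.5, at most 4 per direction, and further ones were named after their values were seen. Coordinates are from GENCODE 29 and promoters from RefSeq. Alternatives were a pseudocount of 0.1, no filter, a mean of at least 5 TPM, a replicate block, median-ratio scaling, quantile normalization, loess correction (span 0.5) for GC content and gene length, this with the block, eBayes without trend, a minimum absolute log2 fold change of 1, and each library left out. Python 3.11.15, pandas 2.3.3 and matplotlib 3.10.9 were also used.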

Additional observations from a re-analysis of the deposited data

How the results depend on the processing

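With no filter on low values, 3 of the family's genes were called (NRP2, PLXNA1 and SEMA3F), 1 of them lower, as were 3 other guidance genes and 2567 genes in all, 31860 genes being tested. An absolute log2 fold change of at least 1 left 0 of the family's genes (0 higher, 0 lower), 4 partners, 1 other guidance gene and 448 genes in all. With each library left out, 2 to 9 of the family's genes were called (0 to 2 higher, 2 to 7 lower), 9 to 14 partners, 2 to 7 other guidance genes and 2318 to 3706 genes in all. Direction turned for SEMA6A without NC replicate 2 and for PLXNB1 without siBCAT1 replicate 1, both uncalled: with single libraries left out, log2 fold changes ran from -0.2487 to 0.03856 for SEMA6A and from -0.2035 to 0.3183 for PLXNB1. The causes were not tested. Some of these settings also carry fewer libraries or more genes, and the part of this in the lost calls was not tested either.

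The replicate numbers were not taken to pair the samples. Deviations of same-numbered libraries correlated by 0.084, 0.102 and 0.124, and those of differently numbered libraries by -0.081 to -0.013. Each library thus correlated best with its own number, and whether the numbers mark a shared batch was not tested. The fit with a replicate block called 4568 genes and 8 of the family, the 7 reported and SEMA4G (adjusted p = 0.0187). Of called genes, 61.6% were higher as reported, 52.1% with median-ratio scaling, 52.3% with quantile normalization and 54.5% with the GC content and length correction. The directions of the 7 called genes were the same under every alternative run. PLXNB2 and PLXND1 passed the threshold in 5 each of the 15 alternatives without a minimum fold change.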
